A study of Homo sapiens with 6 samples.

Results

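The genes described here encode respiratory complexes II to V of the mitochondrion. They were taken by name from the gene counts: every nuclear, protein-coding gene whose current symbol is *SDHA* to *SDHD*, *CYC1* or *CYCS*, or begins with UQC, COX4 to COX8 or ATP5, with pseudogenes left out. The rule used no measured value and found 58 of the 29806 genes listed, with 4 in complex II, 16 in complex III, cytochrome c, 17 in complex IV and 20 in complex V. RNA-seq compared LNCaP parental cells, a human prostate cancer line that responds to androgen, with LNCaP cells in which CRISPR-Cas9 had disrupted *PRKRA*, the gene of the double-stranded RNA binding protein PACT. The LNCaP parental genotype was wild type and the other was PACT knockout (PACT KO). Both were plated in triplicate dishes in RPMI-1640 with 10% fetal bovine serum, and RNA was taken 48 h later at about 80% confluency. Each group had 3 libraries of polyA RNA. The PACT KO dishes came from 1 clone, so a feature of that clone cannot be told apart from the loss of PACT, and p-values measure the spread between dishes only.

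The respiratory chain passes electrons from NADH and succinate to oxygen and uses the energy released to pump protons out of the matrix. Complex II is succinate dehydrogenase, which also works in the citric acid cycle. Complex III hands electrons to cytochrome c, complex IV passes them from cytochrome c to oxygen, and complex V, the ATP synthase, lets the protons back in and makes ATP. Complex II is encoded wholly in the nucleus, whereas complexes III, IV and V each combine nuclear subunits with subunits encoded in mitochondrial DNA. Of the 13 protein-coding genes of mitochondrial DNA, 0 were found among the genes listed, so they were not analysed here.

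Many nuclear respiratory genes carry sites for the factors NRF1, GABP (an ETS family factor) and YY1 close to their start. The 250 bases before the start of 4 members are printed because all hold at least 1 of these letter patterns, and they were chosen after the patterns had been searched. *SDHB* (complex II, iron-sulfur subunit, chr1:17054033-17054282, minus strand) and *SDHD* (complex II, membrane anchor, chr11:112086623-112086872, plus strand) were taken with *CYCS* (cytochrome c, chr7:25125261-25125510, minus strand) and *ATP5PF* (complex V, peripheral stalk, chr21:25735055-25735304, minus strand). Positions and sequences are those of RefSeq on GRCh38.p14, each read 5′ to 3′ on the strand of the gene up to the base before its start. Capitals mark a match to GCGCATGC (NRF1), CCGGAAG (ETS or GABP) or AAGATGGC (YY1) on either strand.
SDHB: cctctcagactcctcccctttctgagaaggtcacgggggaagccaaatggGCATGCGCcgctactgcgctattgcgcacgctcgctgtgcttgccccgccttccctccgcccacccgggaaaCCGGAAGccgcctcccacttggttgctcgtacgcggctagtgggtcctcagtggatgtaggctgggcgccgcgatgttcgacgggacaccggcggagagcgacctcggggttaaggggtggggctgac
SDHD: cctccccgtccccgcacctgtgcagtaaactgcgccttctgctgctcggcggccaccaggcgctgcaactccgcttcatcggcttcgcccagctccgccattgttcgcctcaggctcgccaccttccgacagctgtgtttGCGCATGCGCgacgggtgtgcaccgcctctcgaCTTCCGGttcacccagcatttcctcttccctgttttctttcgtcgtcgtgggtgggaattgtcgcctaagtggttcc
CYCS: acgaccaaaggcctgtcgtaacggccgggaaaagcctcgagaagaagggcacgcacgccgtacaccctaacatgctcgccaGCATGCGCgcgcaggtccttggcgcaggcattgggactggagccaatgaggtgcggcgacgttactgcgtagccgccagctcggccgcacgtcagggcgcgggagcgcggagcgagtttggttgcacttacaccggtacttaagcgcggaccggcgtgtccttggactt
ATP5PF: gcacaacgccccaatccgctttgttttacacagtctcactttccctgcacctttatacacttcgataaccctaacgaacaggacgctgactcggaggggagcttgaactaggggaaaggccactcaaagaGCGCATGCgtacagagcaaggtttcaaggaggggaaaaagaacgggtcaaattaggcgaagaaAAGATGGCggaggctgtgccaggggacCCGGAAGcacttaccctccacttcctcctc
In *SDHB* the NRF1 letters began 200 bases and the ETS letters 128 bases before the start. Its YY1 letters began at base 11 counted from the start, beyond the printed stretch. In *SDHD* the capitals of the first run are a pair of NRF1 matches, 110 and 108 bases before the start, that overlap because the pattern is nearly its own reverse complement. The *SDHD* ETS match lay 77 bases before the start, and the *CYCS* NRF1 match lay 169 bases before it. *ATP5PF* held all 3 patterns within the printed stretch, at 120 (NRF1), 57 (YY1) and 30 (ETS) bases before the start.

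Promoters from 250 bases before to 50 bases after the start were at hand for 44 of the 58 members. The NRF1 letters occurred in 10 of these (22.7%), against 4.26% of the 15843 protein-coding promoters searched in the same way. The ETS letters occurred in 15 (34.1%, against 14.2%) and the YY1 letters in 6 (13.6%, against 3.91%). A match describes the sequence and is not evidence of binding.

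The libraries held 19930060 to 24940838 reads counted on genes, and TMM scaling factors lay between 0.985 and 1.02. *PRKRA* itself gave 882, 809 and 866 reads in the LNCaP parental libraries and 291, 331 and 243 in the PACT KO libraries, or 37.1 ± 1.96 and 12.5 ± 0.995 reads per 1e6 counted reads (CPM; mean ± SD, n = 3). The groups did not overlap, and the log2 fold change was −1.57 (SE 0.07, FDR = 8.83e-21). All 10 prostate luminal markers were tested, and their summed level was 4695 to 4722 CPM in LNCaP parental and 4836 to 4914 CPM in PACT KO libraries. The sum hides opposite changes. At FDR under 0.01 by edgeR, 4 of the 10 were lower and 3 higher, beside 18.8% and 15.3% of all genes tested. Their log2 fold changes ran from −2.50 to 0.54. Basal markers summed to at most 0.185 CPM, with *KRT5* and *KRT15* at 0. Fibroblast markers summed to 33.3 to 38.3 CPM against 45.4 to 50.9 CPM (3 of 6 tested, *COL1A2* at 0), endothelial markers to 24.4 to 27.0 against 15.6 to 17.7 (1 of 4, *PECAM1* and *CDH5* at 0) and leukocyte markers to 2.17 to 2.34 against at most 1.78 (1 of 5, *CD3E* at 0). At FDR under 0.01, 1 of the 3 tested fibroblast markers was higher and 0 were lower. The 1 tested endothelial marker was lower by more than 1.5-fold (log2 fold change −0.61). The 1 tested leukocyte marker was not called. The part of these markers in the results was not tested. The dishes were plated with LNCaP cells or a clone of them, not with a mixture of cell types. In bulk RNA, fewer cells that express a marker and less of its RNA per cell cannot be told apart.

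Most transcripts of complexes II to V were lower in PACT KO cells, most of them by a small amount. Of the 58 members, 51 passed the filter on low counts, 37 of those were lower at FDR under 0.01 and 0 were higher, by edgeR's quasi-likelihood test. DESeq2 also called 0 higher, and 0 members were higher at an unadjusted p under 0.05. Over all 14462 genes tested, 18.8% were lower and 15.3% were higher at the same threshold. The median log2 fold change of the members was −0.16, a decrease of 10.2%, beside 0.00044 for all genes tested. The sign was negative in 50 of the 51, *ATP5F1E* being the exception, and these signs count genes that share libraries rather than independent tests.

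The members are mostly abundant and often short transcripts, so their count was also set beside genes of that kind. Of the 51, 43 are among the 4939 tested protein-coding genes that averaged at least 50 CPM, where 32.4% were lower and 18.2% higher. Of these 43 members, 33 were lower. Restricting further to an annotated transcript under 1000 nt left 287 genes, of which 50.9% were lower and 8.71% higher, with a median log2 fold change of −0.10. In this class 15 of 23 members were lower. Annotated lengths decide which genes enter it, and those of *SDHC* (13566 nt) and *UQCRB* (5575 nt), which it leaves out, may not be the lengths of their main transcripts. The direction of the members was therefore also the more common direction among short, abundant transcripts, and the part of transcript length in it was not tested.

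The changes were small beside the DEG threshold. Only *COX7B2* passed FDR under 0.01 together with a change of 1.5-fold or more, whereas 2.65% of all genes tested did so with lower and 3.07% with higher levels. Within a 1.2-fold change lay 31 of the 37 called members, and the 6 beyond it were *CYC1*, *COX7B2*, *UQCC4*, *UQCRHL*, *ATP5F1D* and *SDHB*. All 3 PACT KO libraries lay below all 3 LNCaP parental libraries in 43 of the 51 members and above them in 0, and the other 8 overlapped. The shares over all genes tested were 27.2% below and 25.1% above. An exact permutation test over 3 against 3 libraries cannot go below p = 0.10 for any single gene.

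**Figure D1:**
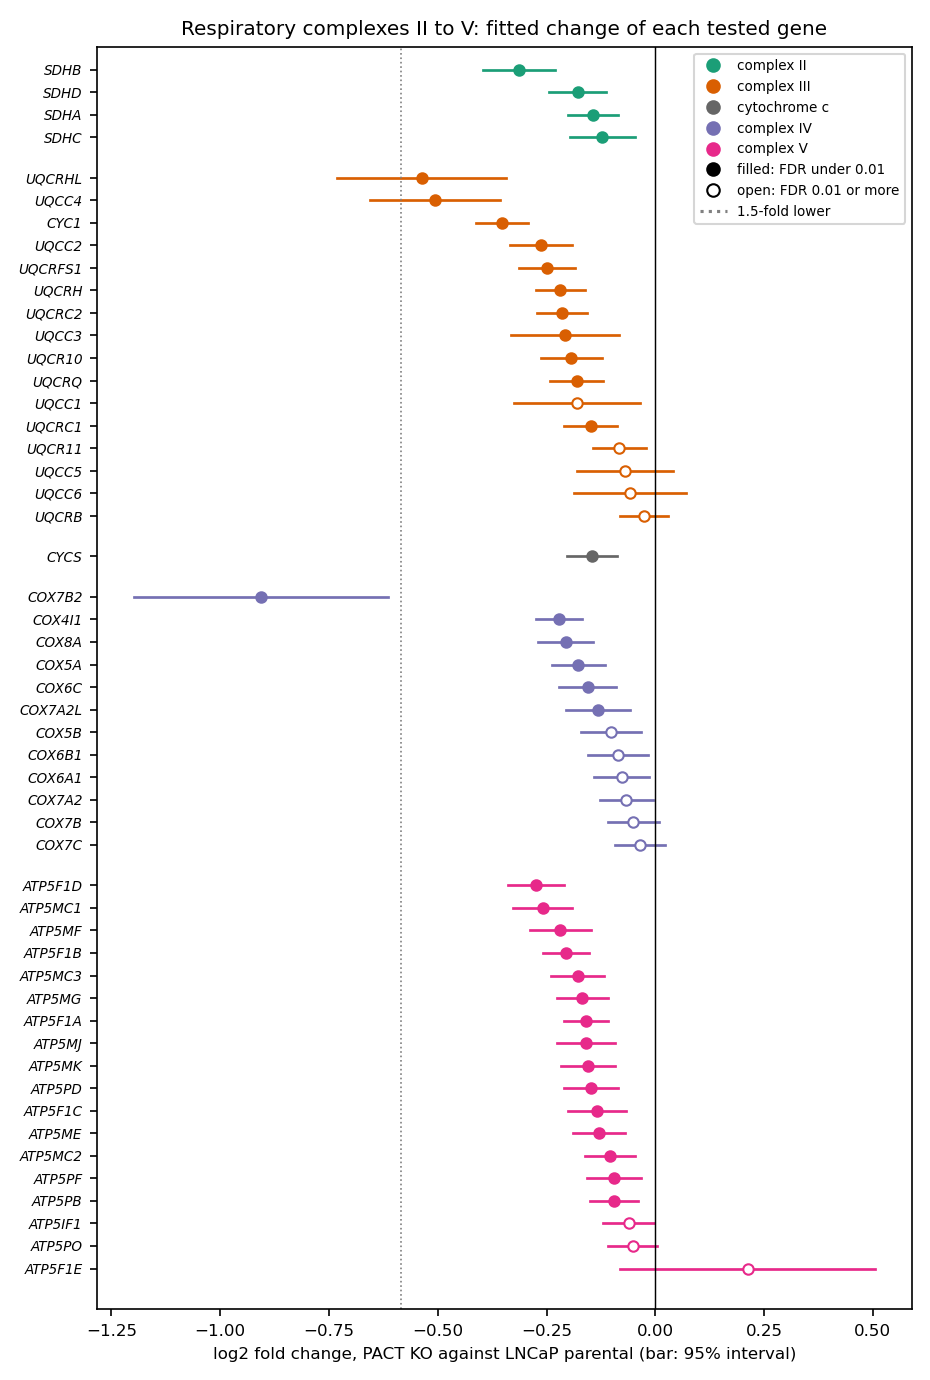
Log2 fold change of PACT KO against LNCaP parental libraries for the 51 tested members, grouped by complex, with bars for the 95% interval and filled points for FDR under 0.01 (edgeR, n = 3 libraries per group). The 37 filled points all lie left of 0, from −0.91 for *COX7B2* to −0.09 for *ATP5PB*, and only *ATP5F1E* lies right of 0, with an interval that spans it.

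The members together took 1.07%, 1.05% and 1.03% of the counted reads, after scaling, in the 3 LNCaP parental libraries and 0.934%, 0.960% and 0.940% in the PACT KO libraries. Each PACT KO library was below each LNCaP parental library in this share. Relative to the LNCaP parental mean, the median member stood at 0.03 on the log2 scale in the highest LNCaP parental library and at −0.03 in the lowest. In PACT KO replicates 1, 2 and 3 it stood at −0.17, −0.14 and −0.16, so no single PACT KO library carried the shift.

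**Figure D2:**
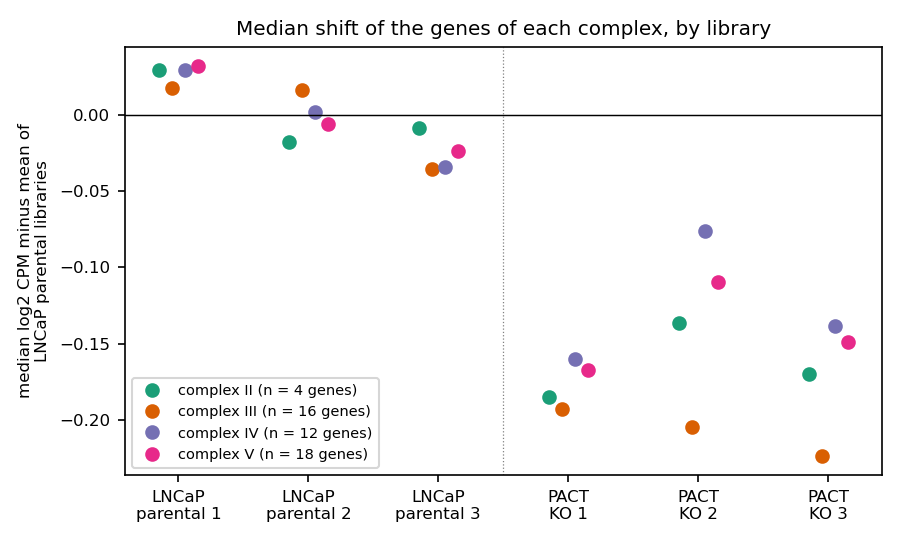
Median log2 CPM of the tested genes of each complex in each library, minus the mean of the LNCaP parental libraries. Points of the 3 PACT KO libraries lie between −0.22 and −0.08, below those of every LNCaP parental library, with complex III lowest in all 3 and complex IV highest in PACT KO replicates 1 to 3.

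The counts by complex and by role below stand beside 18.8% lower and 15.3% higher over all genes tested. Among abundant protein-coding genes 32.4% were lower, and among the short ones of these 50.9%. Complex II was lower throughout. All 4 genes of succinate dehydrogenase passed the test, with a median log2 fold change of −0.16. *SDHB* (NCBI Gene 6390, chromosome 1), the iron-sulfur subunit that relays electrons from the flavin, gave 1635, 1504 and 1727 reads in LNCaP parental and 1468, 1279 and 1175 in PACT KO libraries. Its level was 70.4 ± 1.37 CPM against 56.7 ± 3.63 CPM, and every PACT KO library was below every LNCaP parental one. The log2 fold change was −0.31 (SE 0.041, FDR = 4.57e-08), a decrease of 19.5% and the largest in the complex.

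*SDHA* (NCBI Gene 6389, chromosome 5), the flavoprotein that oxidises succinate, was measured at 177, 172 and 173 CPM and then 155, 160 and 157 CPM. The groups were apart, with a log2 fold change of −0.14 (SE 0.029, FDR = 8.65e-05). *SDHC* and *SDHD* encode the pair of membrane anchors that bind ubiquinone. *SDHD* (NCBI Gene 6392, chromosome 11) stood at 102, 105 and 103 CPM against 90.6, 92.8 and 90.7 CPM, again with no overlap, and changed by −0.18 (SE 0.032, FDR = 2.02e-05) on the log2 scale. *SDHC* changed by −0.12 (FDR = 6.62e-03), but PACT KO replicate 2, at 97.5 CPM, was above LNCaP parental replicate 2, at 95.8 CPM. The *SDHC* call did not hold when LNCaP parental replicate 1 or 3 or PACT KO replicate 1 or 3 was left out, with an FDR of up to 0.0689.

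In complex III, which moves electrons from ubiquinol to cytochrome c, 11 of 16 genes were lower and the median log2 fold change was −0.20. That is 68.8% of its genes, beside 18.8% of all genes tested. The 4 core and redox subunits were all lower. *CYC1* (NCBI Gene 1537, chromosome 8), the cytochrome c1 haem protein, gave 5279, 5035 and 5435 reads in LNCaP parental and 4275, 4432 and 3661 in PACT KO libraries. Its level fell from 228 ± 7.64 CPM to 179 ± 5.01 CPM, with a wide gap between the groups. The log2 fold change was −0.35 (SE 0.030, FDR = 1.73e-12), the smallest FDR of any member.

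*UQCRFS1* (NCBI Gene 7386, chromosome 19), the Rieske iron-sulfur protein, stood at 136, 131 and 128 CPM in LNCaP parental and at 111, 110 and 111 CPM in PACT KO libraries. Its PACT KO libraries were nearly equal and all below the LNCaP parental ones, and its log2 fold change was −0.25 (SE 0.031, FDR = 2.11e-08). The core proteins, which hold the complex together in the matrix, changed by −0.15 for *UQCRC1* (FDR = 8.49e-05) and by −0.21 for *UQCRC2* (FDR = 5.24e-08).

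The small subunits of complex III were uneven. *UQCRH* (NCBI Gene 7388, chromosome 1), the hinge protein that sits beside cytochrome c1, was at 261, 256 and 262 CPM and then at 229, 223 and 217 CPM, with separate groups and a log2 fold change of −0.22 (SE 0.028, FDR = 2.77e-08). *UQCRQ* (−0.18) and *UQCR10* (−0.19) were also lower. *UQCRB*, the subunit next to the quinone site, stood at 230, 226 and 227 CPM against 227, 223 and 221 CPM. Its groups overlapped, the 95% interval of its log2 fold change ran from −0.08 to 0.03 around −0.03 (FDR = 0.478), and its sign turned to positive under scaling by total counts. *UQCR11* gave −0.08 (FDR = 0.0255) with separate groups, and passed the test, at FDR = 6.33e-03, only when PACT KO replicate 2 was left out.

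*UQCRHL* (NCBI Gene 440567, chromosome 1), an intronless near-copy of *UQCRH*, had 329, 339 and 375 reads in LNCaP parental and 309, 224 and 190 in PACT KO libraries. That is 15.1 ± 0.595 CPM against 10.4 ± 1.85 CPM, with PACT KO replicate 1 the closest to the LNCaP parental libraries. Its log2 fold change was −0.54 (SE 0.096, FDR = 1.56e-05), and −0.69 without PACT KO replicate 1, where it also passed the DEG threshold. Reads of this pair may be assigned to either copy, so the split between them is uncertain. *UQCRHL* had 5.55, 6.13 and 5.78 reads per 100 *UQCRH* reads in LNCaP parental and 5.46, 4.13 and 4.32 in PACT KO libraries.

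The 6 assembly factors in the complex, which help build cytochrome b and complete the enzyme, gave 3 lower calls. A share of 50% in so few genes stands beside 18.8% of all genes tested and 32.4% of abundant protein-coding genes. *UQCC4* (NCBI Gene 283951, chromosome 16) had 565, 510 and 555 reads in LNCaP parental and 409, 439 and 306 in PACT KO libraries. Its level was 23.6 ± 1.24 CPM against 16.6 ± 1.46 CPM with no overlap. The log2 fold change was −0.51 (SE 0.074, FDR = 4.75e-07), a decrease of 29.6%.

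*UQCC2* changed by −0.26 (FDR = 9.43e-08) and *UQCC3* by −0.21 (FDR = 5.47e-03). For *UQCC3*, PACT KO replicate 1 at 31.6 CPM overlapped the lowest LNCaP parental library at 31.2 CPM, and the call did not hold without LNCaP parental replicate 1 or 2 or PACT KO replicate 2 or 3, with an FDR of up to 0.0624. *UQCC1* (−0.18, FDR = 0.0387), *UQCC5* (−0.07, FDR = 0.307) and *UQCC6* (−0.06, FDR = 0.488) did not pass. The sign of *UQCC6* turned to positive without PACT KO replicate 3.

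Cytochrome c, the soluble carrier between complexes III and IV that also triggers apoptosis when it leaves the mitochondrion, is encoded in somatic cells by *CYCS* (NCBI Gene 54205, chromosome 7). Its reads were 5595, 4979 and 5964 in LNCaP parental and 5305, 5280 and 4395 in PACT KO libraries. After scaling, it stood at 239 ± 8.19 CPM against 216 ± 1.47 CPM, with the PACT KO libraries close together below the LNCaP parental ones. The log2 fold change was −0.14 (SE 0.028, FDR = 6.12e-05).

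**Figure D3:**
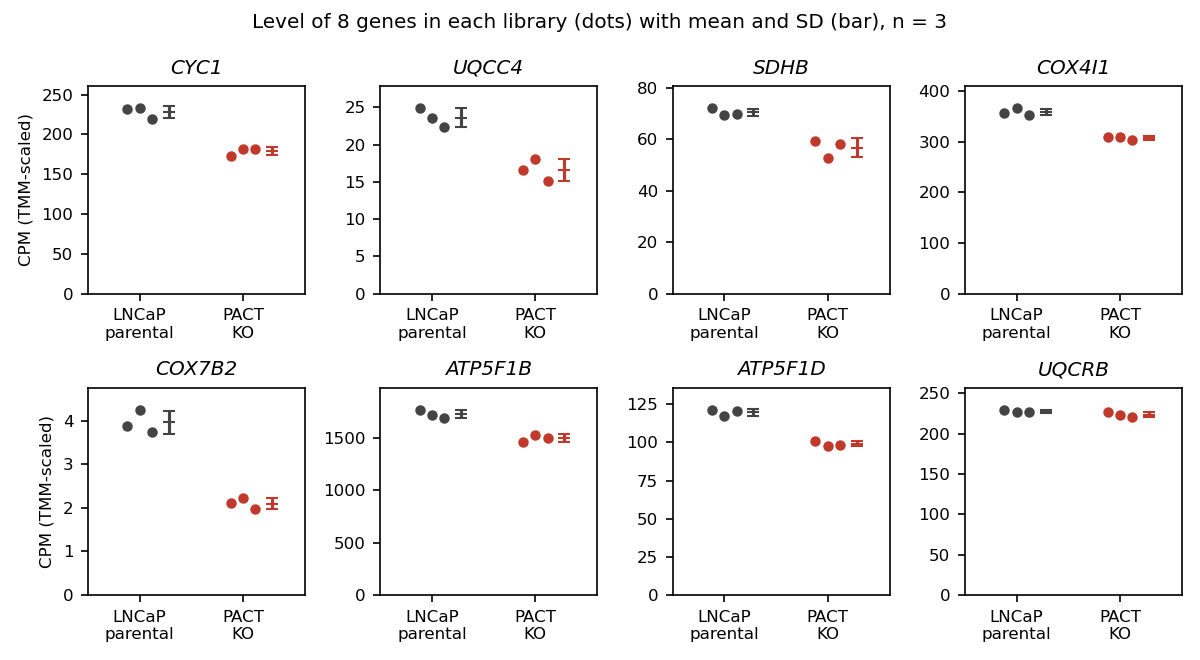
CPM in each library (points) with mean and SD (bars, n = 3) for 8 members in LNCaP parental and PACT KO cells, each axis starting at 0. The groups are apart for *CYC1*, *UQCC4*, *SDHB*, *COX4I1*, *COX7B2*, *ATP5F1B* and *ATP5F1D*, while *UQCRB* stays at 221 to 230 CPM in all 6 libraries.

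Complex IV, cytochrome c oxidase, moved least by its median (−0.12), with 6 of 12 tested genes lower (50%). The share was 18.8% over all genes tested and 50.9% among the short, abundant protein-coding genes. Of the complex IV genes in that class, *COX4I1* and *COX8A* were lower. *COX5B*, *COX6A1*, *COX6B1*, *COX7A2*, *COX7B* and *COX7C*, in the same class, were not called. No test compared the complexes with each other. The subunits encoded in mitochondrial DNA carry its catalytic centres, and the nuclear subunits listed here surround them. *COX4I1* (NCBI Gene 1327, chromosome 16), the regulatory subunit to which ATP binds, gave 8089, 7921 and 8759 reads in LNCaP parental and 7655, 7533 and 6135 in PACT KO libraries. The level was 359 ± 6.70 CPM against 308 ± 3.66 CPM, with separate groups, and the log2 fold change was −0.22 (SE 0.026, FDR = 6.98e-09).

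*COX8A* (NCBI Gene 1351, chromosome 11) was at 251, 234 and 227 CPM and then at 202, 208 and 207 CPM. *COX5A* (NCBI Gene 9377, chromosome 15) was at 174, 183 and 174 CPM and then at 154, 162 and 154 CPM. Neither gene had overlapping groups, and their log2 fold changes were −0.21 (SE 0.031, FDR = 6.86e-07) and −0.18 (SE 0.030, FDR = 7.89e-06). *COX6C* (−0.16) and *COX7A2L* (−0.13, FDR = 2.75e-03), the latter a factor that joins complexes III and IV into supercomplexes, were also lower. *COX7A2L* did not pass without LNCaP parental replicate 1 or PACT KO replicate 3, with an FDR of up to 0.0372.

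Of the 10 ubiquitous subunits, 6 did not pass the test, although 4 of these had separate groups. *COX5B* gave −0.10 (FDR = 0.0145), *COX6B1* −0.09 (FDR = 0.0387) and *COX6A1* −0.08 (FDR = 0.0416). These 3 passed when PACT KO replicate 2 was left out, at an FDR of 5.62e-03, 3.40e-03 and 9.27e-03, and *COX6B1* also without LNCaP parental replicate 3 (FDR = 6.68e-03). Without PACT KO replicate 1 they gave −0.060 (FDR = 0.199), −0.034 (FDR = 0.425) and −0.038 (FDR = 0.380). The smallest shifts were those of *COX7A2* (−0.07), *COX7B* (−0.05) and *COX7C* (−0.03). The 95% interval was −0.09 to 0.02 for *COX7C*, whose libraries overlapped at 410, 394 and 386 CPM against 394, 396 and 371 CPM.

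The tissue isoforms of complex IV, which replace ubiquitous subunits in heart, skeletal muscle, lung or testis, were mostly absent. *COX4I2*, *COX6A2* and *COX7A1* had 0 reads in all 6 libraries, which allows at most 3 counts, or 0.121 to 0.148 CPM per library. *COX6B2* had 0, 1 and 0 reads against 0, 4 and 1, and *COX8C* had 2, 1 and 2 against 0, 4 and 0. The exception was *COX7B2* (NCBI Gene 170712, chromosome 4), a paralogue of *COX7B*, with 88, 92 and 93 reads in LNCaP parental and 52, 54 and 40 in PACT KO libraries. Its level was 3.96 ± 0.261 CPM against 2.10 ± 0.121 CPM, and the groups did not overlap. The log2 fold change of −0.91 (SE 0.144, FDR = 2.08e-06) was the largest of any member.

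In complex V, 15 of 18 tested genes were lower (83.3%) and the median log2 fold change was −0.15. Over all genes tested 18.8% were lower, and 50.9% among the short, abundant protein-coding genes. The catalytic head and central stalk, where ATP is made as the stalk turns, gave 4 lower calls among 5 genes. *ATP5F1B* (NCBI Gene 506, chromosome 12), the catalytic beta subunit, had 40085, 37038 and 41794 reads in LNCaP parental and 35987, 37146 and 30323 in PACT KO libraries. Its level was 1722 ± 39.7 CPM against 1495 ± 35.7 CPM, apart in all libraries, with a log2 fold change of −0.20 (SE 0.026, FDR = 2.78e-08).

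*ATP5F1D* (NCBI Gene 513, chromosome 19), the delta subunit of the central stalk, had 2758, 2537 and 2993 reads in LNCaP parental and 2498, 2381 and 1989 in PACT KO libraries. It stood at 120 ± 2.23 CPM against 99.1 ± 1.73 CPM, and its log2 fold change of −0.27 (SE 0.032, FDR = 3.42e-09) was the largest fall in complex V. The alpha subunit *ATP5F1A* changed by −0.16 (FDR = 2.04e-06) and the gamma subunit *ATP5F1C* by −0.13 (FDR = 8.47e-04). The call of *ATP5F1C* did not hold without LNCaP parental replicate 1 (FDR = 0.0101) or PACT KO replicate 1 (FDR = 0.0326).

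*ATP5F1E*, the epsilon subunit, was the only member with a positive sign. It had 100, 78 and 78 reads in LNCaP parental and 88, 129 and 81 in PACT KO libraries, and the groups overlapped. Its log2 fold change of 0.21 (SE 0.144, FDR = 0.240) had a 95% interval of −0.08 to 0.50. The value was 0.022 without PACT KO replicate 2, its highest library, 0.10 without LNCaP parental replicate 3, and 0.35 without LNCaP parental replicate 1 or PACT KO replicate 1. Its few reads, 3.72 CPM in LNCaP parental cells, limit the precision. The gene overlaps a readthrough gene, and how reads that fall in both were counted was not tested.

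Subunit c forms the rotating ring, and 3 genes encode the same mature protein behind different import signals. *ATP5MC1* (NCBI Gene 516, chromosome 17) had 2691, 2578 and 2932 reads in LNCaP parental and 2312, 2506 and 2045 in PACT KO libraries. *ATP5MC2* (NCBI Gene 517, chromosome 12) had 9469, 8753 and 9596 against 9198, 9363 and 7419 reads, and *ATP5MC3* (NCBI Gene 518, chromosome 2) had 4719, 4630 and 5557 against 4602, 4769 and 3823. After scaling, none of the 3 had overlapping groups. The log2 fold changes were −0.26 (SE 0.034, FDR = 5.08e-08) for *ATP5MC1*, −0.10 (SE 0.028, FDR = 2.41e-03) for *ATP5MC2* and −0.18 (SE 0.030, FDR = 6.27e-06) for *ATP5MC3*. The call of *ATP5MC2* did not hold without LNCaP parental replicate 1 or 2 or PACT KO replicate 3, with an FDR of up to 0.0406.

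Per transcript length, *ATP5MC1* made up 21.5%, 21.8% and 21.9% of the subunit c transcripts in LNCaP parental libraries and 19.5%, 20.4% and 20.8% in PACT KO libraries. The share of *ATP5MC2* went from a mean of 50.3% to 52.1%, and the 3 PACT KO libraries, at 51.5% to 52.9%, overlapped the LNCaP parental range of 48.7% to 51.6%. *ATP5MC3* made up 27.6% to 27.7% in PACT KO libraries, inside the LNCaP parental range of 26.8% to 29.4%. These shares rest on annotated lengths and were not tested.

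The peripheral stalk, which keeps the head from turning, had the smallest median (−0.10) among the roles within complex V. *ATP5PB* (NCBI Gene 515, chromosome 1), its long b subunit, had 6522, 6024 and 6868 reads in LNCaP parental and 6351, 6510 and 5357 in PACT KO libraries. Its level was 281 ± 5.40 CPM against 263 ± 5.52 CPM, with separate groups. The log2 fold change was −0.09 (SE 0.027, FDR = 4.49e-03) with a 95% interval of −0.15 to −0.04. The call of *ATP5PB* held without PACT KO replicate 2 but not when any other single library was left out, with an FDR of up to 0.0409.

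*ATP5PD* was lower by the same test (−0.15, FDR = 1.20e-04). *ATP5PF*, whose promoter is printed above, sat at the threshold (−0.10, FDR = 9.96e-03). Its call held without LNCaP parental replicate 2 and not without any other single library (FDR up to 0.0528), and 12 of the 13 alternatives lost it. *ATP5PO*, the subunit that joins stalk and head, gave −0.05 with separate groups (FDR = 0.129). The inhibitor *ATP5IF1*, which stops the enzyme running backwards, gave −0.06 (FDR = 0.0863). All 5 small membrane subunits, which support the dimer of the enzyme, were lower. They were *ATP5MF* (−0.22), *ATP5MG* (−0.17), *ATP5MJ* (−0.16), *ATP5MK* (−0.15) and *ATP5ME* (−0.13). The readthrough gene *ATP5MF-PTCD1* had 0 reads in all libraries, and *ATP5MGL* had 1, 0 and 0 against 1, 0 and 2.

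Taking all 13 alternative fits together, 30 of the 37 lower calls held under every one. The 7 others were *SDHC*, *UQCC3*, *COX7A2L*, *ATP5F1C*, *ATP5MC2*, *ATP5PB* and *ATP5PF*.

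Genes around the complexes were examined in lists of their own. Their calls at FDR under 0.01 stand beside 18.8% lower and 15.3% higher over all genes tested. Among 28 complex IV genes outside the naming rule, which are assembly factors and the subunit gene *COXFA4*, 9 were lower and 1 was higher, with a median log2 fold change of −0.10. The count of higher calls was 2 without LNCaP parental replicate 1 or PACT KO replicate 3. *CMC2* fell from 34.0 to 24.8 CPM (−0.46, SE 0.056, FDR = 1.24e-08) and *LRPPRC*, which stabilises mitochondrial messenger RNA, changed by −0.16 (FDR = 4.21e-05). *COX20*, a chaperone of the COX2 subunit, rose from 89.3 to 104 CPM (0.22, FDR = 2.95e-06). *COXFA4* (also *NDUFA4*), singled out after its value was seen, gave −0.02 (FDR = 0.707).

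Among 5 assembly factors of complex III with other names, *OCIAD1* (−0.10), *LYRM7* (−0.15) and *BCS1L* (−0.15) were lower and *TTC19* was higher (0.14, FDR = 8.39e-04). The count of lower calls was 2 without PACT KO replicate 3 and 1 without any other single library, and the count of higher calls was 0 without LNCaP parental replicate 3. Of the 4 assembly factors of complex II and the 5 of complex V, 0 passed in either direction by edgeR or DESeq2, and 0 had an unadjusted p under 0.05. Their medians were −0.10 and 0.05, and the latter turned to −0.052 without LNCaP parental replicate 3.

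Of the regulators of respiratory genes, 12 of 13 were tested, 5 were lower and 0 were higher. *PPRC1*, a coactivator of the PGC-1 family, stood at 83.2, 80.5 and 79.1 CPM against 66.7, 65.8 and 65.0 CPM (−0.30, SE 0.036, FDR = 9.85e-09). The oestrogen-related receptor gene *ESRRA* changed by −0.28 (FDR = 2.73e-08) and the coactivator gene *PPARGC1B* by −0.45 (FDR = 9.16e-06). The other 2 were *TFAM* (−0.12) and *TFB2M* (−0.18), which act on mitochondrial DNA. The count of lower calls was 3 without LNCaP parental replicate 1 or 2, and the count of higher calls was 1 without PACT KO replicate 3. By DESeq2 0 were higher, and 1 was higher at an unadjusted p under 0.05. The genes of the factors whose letters were searched in the promoters did not pass: *NRF1* gave −0.04 (FDR = 0.614), *GABPA* 0.14 (FDR = 0.0120) and *YY1* 0.01 (FDR = 0.838). *GABPA* is the regulator that was higher at an unadjusted p under 0.05, and its groups did not overlap. It was thus the regulator nearest to a higher call. Under upper quartile and total count scaling, without a filter and with the 1 CPM filter, 1 regulator was called higher. Not passing does not show that *GABPA*, or any other gene named here, was unchanged. The genes of the other GABP subunit gave −0.09 for *GABPB1* (FDR = 0.223) and −0.25 for *GABPB2* (FDR = 0.0139).

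The citric acid cycle without succinate dehydrogenase gave 9 lower and 0 higher calls among 13 genes, with a median of −0.16. *FH*, which hydrates the fumarate that complex II makes, went from 156, 157 and 161 CPM to 98.0, 103 and 93.8 CPM, a log2 fold change of −0.69 (SE 0.033, FDR = 8.08e-20). The complex II genes lay between −0.31 and −0.12. *MDH2* (−0.26) and *DLST* (−0.24) followed by FDR. Mitochondrial import and outer membrane genes gave 15 lower and 0 higher calls among 18, with a median of −0.23, with the smallest FDR for *HSPD1* (−0.31), *TOMM40* (−0.41) and *VDAC1* (−0.29). In both lists 0 genes were higher by DESeq2 or at an unadjusted p under 0.05.

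**Figure D4:**
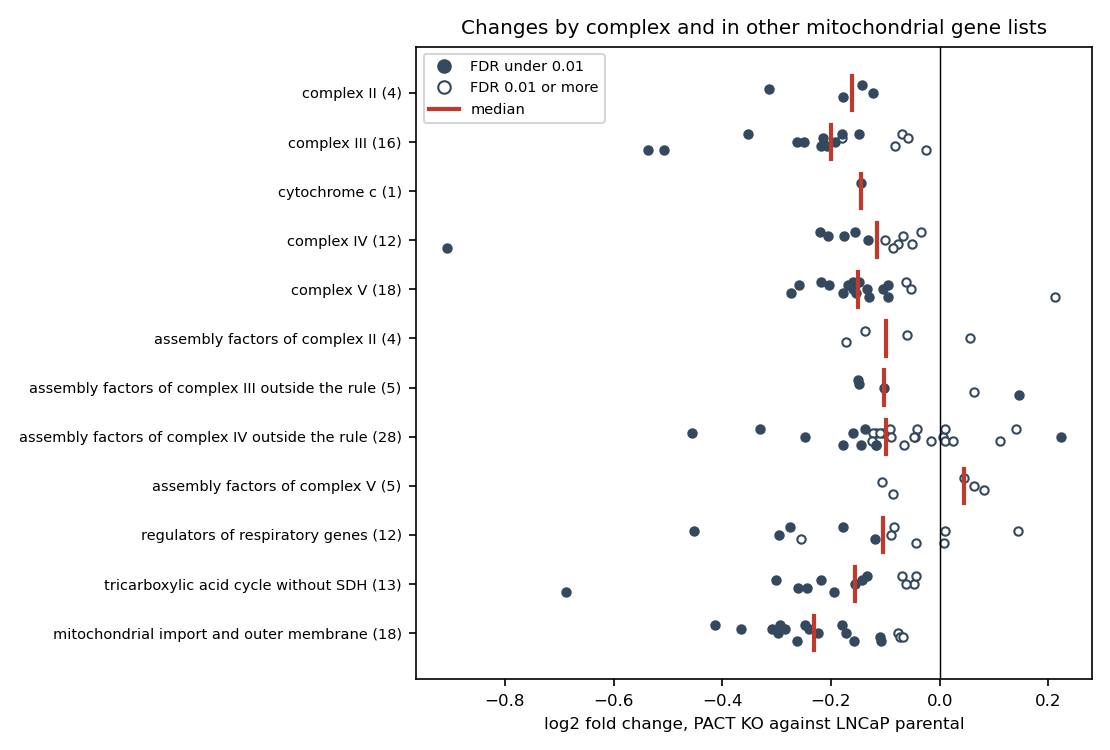
Log2 fold change of each tested gene in complexes II to V, cytochrome c and 7 further lists of mitochondrial genes, with the number of genes in brackets (*COXFA4* is in the complex IV assembly list), filled points for FDR under 0.01 and a bar at the median. Medians run from −0.23 for import and outer membrane genes to 0.05 for complex V assembly factors, and the complexes lie between −0.20 and −0.12.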

How the data were processed

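PolyA RNA of 6 libraries was analysed from read counts per NCBI Gene number, which the authors deposited as whole numbers without normalization. The submitters' processing notes name bcl2fastq 2.20.0.422, STAR 2.5.3a, StringTie 1.3.3, featureCounts 1.5.3 and hg38. The use of strand is not given in the sources used here, so reads of overlapping and antisense genes may be shared or lost. One row lacked a gene number. It took 0.0688% to 0.0708% of each library and was left out. No column was left unused. Of 29806 genes, 27540 (92.4%) received a RefSeq symbol.

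Genes were kept by edgeR's filterByExpr (14462), scaled by TMM, and compared by glmQLFit and glmQLFTest in edgeR 4.0.16 under R 4.3.3. The test was 2-sided with Benjamini-Hochberg adjustment over all genes tested, and called at FDR under 0.01. A DEG also needed a 1.5-fold change. The SE is the absolute log2 fold change over the square root of F. Limits from 3 counts cover counting error only. Transcript lengths came from GENCODE 29. Each test was first tested on simulated data. Alternatives were DESeq2 1.42.0, other scalings and filters, a replicate block and leaving out each library. Equal replicate numbers showed no sign of pairing, which 3 libraries a group cannot exclude.

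The members and lists were chosen with earlier results of these data known. Genes named with every library's value were the DEGs, the 3 smallest p in each complex, the 3 largest falls, *CYCS*, the subunit c genes, *ATP5PB* and members under the filter, and up to 3 genes of each other list. Genes beyond this rule were named after their values were seen. The 6 fibroblast, 5 leukocyte, 4 endothelial, 4 basal and 10 luminal markers served to check the label of the cells, and 1 of them is not reported by name here. Protein identities between paralogues had been planned and were not computed.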

Additional observations from a re-analysis of the deposited data

How the results depend on the processing

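Between 30 and 39 members were lower, and 0 higher, under the 13 alternative fits: 33 with DESeq2, 36 with RLE scaling, 31 with upper quartile or total count scaling, 36 without a filter or with at least 1 CPM in 3 libraries, 35 with a replicate block, and 30 to 39 with 1 library left out. At FDR under 0.05, 42 were lower. Fewer libraries, and so fewer residual degrees of freedom, enter the leave-one-out fits. Calls beyond 1.2-fold numbered 6 instead of the 1 at 1.5-fold, and 1 to 2 with 1 library left out, *UQCRHL* passing without PACT KO replicate 1.

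Total count scaling moved the median of all genes by 0.03 on the log2 scale and upper quartile scaling by 0.02, and over all genes tested the lower and higher shares became 15.8% and 18.9%, and 16.2% and 18.3%. With total counts the median was −0.13 for all members, −0.13 for complex II, −0.17 for complex III and −0.12 for complex V. The other medians were −0.069 for complex IV assembly factors, 0.074 for those of complex V, −0.075 for regulators, −0.13 for the citric acid cycle and −0.20 for import genes. With upper quartile scaling complex III had −0.18, complex IV assembly factors −0.074, the citric acid cycle −0.13 and import genes −0.21. Lower calls among the other assembly factors of complex III fell from 3 to 0 under both scalings and 1 with DESeq2, and among regulators from 5 to 3 under all 3. Complex IV assembly factors had 2 higher calls under both scalings. Regulators had 1 higher call under both, without a filter, and with the 1 CPM filter. The cause was not tested beyond the shift of the median.

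With 1 library left out, the median of complex V assembly factors ran from −0.052 to 0.057, reversed only without LNCaP parental replicate 3. Medians ran from −0.11 to −0.041 for complex II assembly factors, −0.11 to −0.071 for those of complex IV, −0.24 to −0.21 for import genes and −0.17 to −0.14 for the citric acid cycle. Calls of the other complex III assembly factors ran from 1 to 2 lower and 0 to 1 higher, of complex IV assembly factors from 1 to 2 higher, and of regulators from 3 to 5 lower and 0 to 1 higher.

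The replicate numbers showed no sign of pairing: correlations of the deviations were −0.09, 0.0029 and −0.09 for equal numbers, and none of the 3 pairs passed 0.1. The largest value, 0.15, was that of LNCaP parental replicate 3 with PACT KO replicate 1. Such correlations over 3 libraries a group cannot exclude a pairing. The replicate block left 35 members lower, without *SDHC* and *ATP5PF*.

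Limits: the PACT KO libraries are dishes of 1 clone, 3 libraries a group allow no p below 0.10 in a permutation test, and most members differ by less than 1.2-fold, where the scaling of libraries weighs most. Reads of near-copies and overlapping genes could be split.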

Other observations

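Of the ribosomal and transfer RNA genes of mitochondrial DNA in the counts, 16 were tested, and 4 were higher and 2 lower at FDR under 0.01. Over all genes tested the shares were 15.3% higher and 18.8% lower. The genes below were singled out after their values were seen. *RNR2* stood at 17828, 17780 and 18034 CPM in LNCaP parental and at 24741, 22333 and 21989 CPM in PACT KO libraries, a log2 fold change of 0.36 (SE 0.029, FDR = 3.03e-13 by edgeR). *RNR1* stood at 1894, 1923 and 1937 CPM against 3370, 2364 and 2350 CPM, a log2 fold change of 0.49 (SE 0.063, FDR = 3.23e-08), with PACT KO replicate 1 above the other PACT KO libraries. Neither gene had overlapping groups. The transfer RNA genes *TRNG* (0.40, FDR = 2.50e-03) and *TRNH* (0.41, FDR = 3.76e-03) were also higher, with overlapping groups. *TRNL1* (−0.24, FDR = 5.77e-07, groups apart) and *TRNM* (−0.35, FDR = 9.60e-03, overlapping) were lower. These are counts from polyA RNA. Whether they follow the levels of the ribosomal and transfer RNAs themselves was not tested.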
